A study of Caenorhabditis elegans with 6 samples.

Results

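The vacuolar ATPase is a rotary proton pump, and 10 of its subunit genes were followed in whole hermaphrodites of the nematode Caenorhabditis elegans. The 10 were named by their gene symbols and found by WormBase identifier among the 46748 features of the counts table. They are the 4 subunit a genes unc-32, vha-5, vha-6 and vha-7, the subunit c genes vha-2 and vha-3, and vha-13, vha-12, vha-8 and vha-11 for subunits A, B, E and C. All 10 passed the filter on low counts and were among the 14265 genes tested. The worms were 5 days old and of strain N2, the usual wild type of the field, and library preparation was with a kit that keeps no strand information (TruSeq RNA v2). In 3 libraries the perturbation label is Y6B3B.9, a worm gene, and in 3 it is L4440, known as the empty plasmid of RNA interference by feeding. The labels give no food, temperature or dose, do not say how Y6B3B.9 was perturbed, and do not say whether libraries of a group came from separate cultures, so p-values measure the spread between these libraries, which may be technical.

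The pump has a soluble part, V1, which hydrolyses ATP, and a membrane part, V0, which carries protons. It acidifies lysosomes, endosomes and synaptic vesicles, and in worms it also works at the surface of the gut, the excretory canal and the epidermis. Subunit a forms the path that protons take through the membrane and decides on which membrane a pump sits. From reporter studies, unc-32 is known as the broadly expressed isoform needed in neurons, vha-5 as that of the excretory canal and epidermis, vha-6 as that of the intestine, and vha-7 as that of the epidermis and uterus. The other subunits are shared by pumps of many tissues.

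Libraries held between 23103541 and 32012257 counted reads. Of all genes tested, 84.1% passed an adjusted p of 0.05 between the labels, 46.4% with a higher and 37.7% with a lower level under Y6B3B.9, which is the direction that "rose" and "fell" have throughout. The median log2 change of all genes tested was 0.22 with TMM scaling. Scaling by DESeq2's size factors moved this median by -0.15 and scaling by library totals moved it by 0.29. Changes of the 10 subunit genes are therefore also given relative to the median. Changes of other genes are against 0 unless stated. Reads of Y6B3B.9 itself were not reduced under its own label, with 1057, 1211 and 969 there and 578, 557 and 666 under L4440. The change was 0.65 on the log2 scale (SE 0.074, edgeR adjusted p = 1.26e-06), or 0.43 relative to the median. Whether any of these reads came from introduced sequence was not tested.

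Of the 10 subunit genes, 6 fell, 3 rose and vha-2 did not pass the test, a call rate of 9 in 10 against 84.1% of all genes. The largest falls were those of vha-12, unc-32 and vha-7, with ratios of Y6B3B.9 to L4440 means between 0.469 and 0.523, and the rises of vha-6, vha-3 and vha-5 were of less than 1.3-fold. In the same 9 genes the ranges of the labels lay apart, 3 higher and 6 lower, where 85.4% of all genes tested had ranges apart, 47.1% higher and 38.3% lower. The median log2 change of the 10 genes was -0.20. By library totals it was 0.092 and the balance turned to 5 higher and 4 lower, beside 57.5% and 27.9% of all genes tested. The plot of levels by library shows all 60 values.

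**Figure D1:**
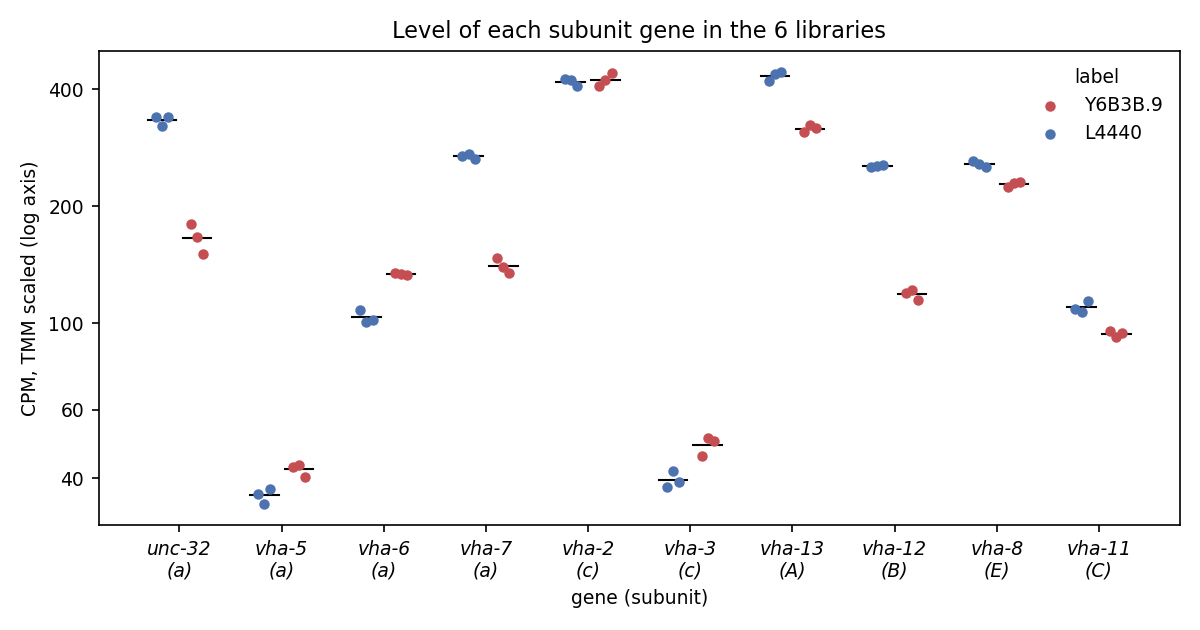
CPM (counts per 1e6 reads, TMM scaled, log axis) of the 10 genes in each of the 6 libraries; points are libraries, bars are means of 3, and letters name the subunit. The points of vha-12, unc-32 and vha-7 lie far apart between labels, at means of 119 against 254, 166 against 334 and 140 against 269 CPM, while those of vha-2 overlap.

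The 4 isoforms of subunit a went in opposite directions. unc-32 (WBGene00006768; chromosome III, 8905615 to 8911756, plus strand, build WBcel235) had 180, 167 and 151 CPM in the libraries labelled Y6B3B.9 and 339, 322 and 340 CPM in those labelled L4440. Its highest library under the first label lay well below its lowest under the second. The log2 change was -1.01 (SE 0.061, edgeR adjusted p = 1.14e-09), or -1.22 relative to the median gene. The spread among the Y6B3B.9 libraries, a coefficient of variation of 8.82%, was wider than the 2.99% under L4440.

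vha-7 (WBGene00006916; chromosome IV, 12640462 to 12650652, plus strand) followed the same pattern. It had 147, 140 and 135 CPM under Y6B3B.9 and 269, 272 and 265 CPM under L4440, again with no overlap. Its log2 change was -0.93 (SE 0.048, edgeR adjusted p = 2.34e-10), or -1.15 relative to the median. All 16 alternative settings kept both unc-32 and vha-7 lower and past the threshold.

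vha-6 (WBGene00006915; chromosome II, 11435210 to 11438452, minus strand), the intestinal isoform, rose. It had 135, 134 and 133 CPM under Y6B3B.9 and 108, 101 and 102 CPM under L4440, so the groups did not overlap. The log2 change was 0.37 (SE 0.045, edgeR adjusted p = 2.50e-06), past the threshold in all 16 alternatives. Relative to the median gene it was 0.16.

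vha-5 (WBGene00006914; chromosome IV, 8303968 to 8307371, plus strand) was the lowest of the 10 genes and took between 856 and 1424 reads per library. For the 856 reads an exact 95% Poisson interval, which covers counting error only, ran from 800 to 915. Its levels were 42.7, 43.3 and 40.4 CPM under Y6B3B.9 and 36.4, 34.4 and 37.6 CPM under L4440. The groups lay apart by a narrow margin, with a log2 difference of 0.22 (edgeR SE 0.057, adjusted p = 0.00231) that equals the median of all genes tested. The call was lost with DESeq2's size factors (0.07), in the DESeq2 Wald test and with no filter, and a coding gene on the other strand, F35H10.10, shares 57 exonic bases with vha-5 and also rose (log2 change 0.46), so reads of the overlap could not be told apart in this unstranded library.

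The make-up of the subunit a transcripts differed between labels. A share within a library needs no scaling between libraries, and dividing reads by gene length allows isoforms to be compared. By reads per kilobase, unc-32 made up 43.6%, 42.8% and 44.2% of the 4 isoforms in the libraries labelled L4440 and 32.8%, 31.5% and 30% in those labelled Y6B3B.9. vha-6 made up 18.4%, 17.8% and 17.7% under L4440 and 32.7%, 33.8% and 35.3% under Y6B3B.9. unc-32 thus led in every L4440 library, while under Y6B3B.9 the shares of unc-32 and vha-6 were alike, with unc-32 ahead by 32.8% to 32.7% in replicate 1 and behind in replicates 2 and 3.

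The share of vha-7 went from 32.7% ± 0.913 (SD, n = 3) under L4440 to 24.9% ± 0.184 (SD, n = 3), and that of vha-5 from 5.74% ± 0.192 to 9.74% ± 0.252. Each of the 4 shares differed without overlap. Shares within a library have a fixed sum, so the larger shares of vha-5 and vha-6 also reflect the falls of unc-32 and vha-7. In CPM the ratios of Y6B3B.9 to L4440 means were 1.17 for vha-5 and 1.29 for vha-6. In exact permutation tests, two-sided, each had p = 0.1, the lowest value that a design of 3 against 3 can reach (0.1 adjusted over the 4). Summed over the 4 isoforms, the level per length was 152, 146 and 139 RPKM under Y6B3B.9 and 215, 208 and 213 RPKM under L4440, here computed from counts with TMM scaling. The summed level was therefore lower under Y6B3B.9 by a ratio of 0.688, a value that moves with the scaling.

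**Figure D2:**
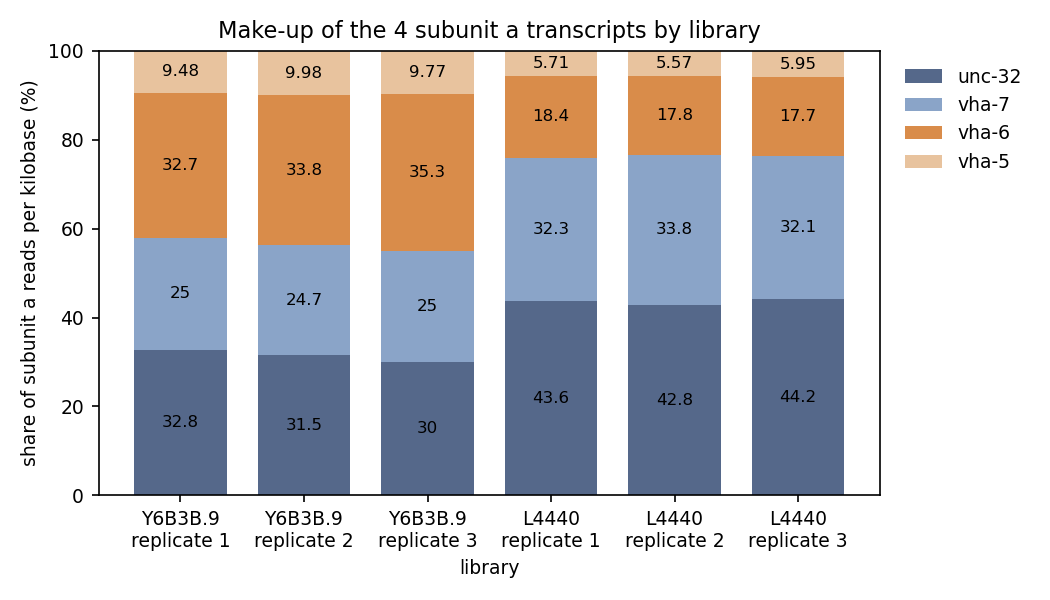
Stacked bars of the share (%) of each subunit a gene in the reads per kilobase of the 4 isoforms, 1 bar per library, with the share printed in each segment. The segments of vha-6 and vha-5 are wider in all 3 libraries labelled Y6B3B.9 and those of unc-32 and vha-7 narrower.

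Ratios between isoforms compared them directly, in 6 pairs. The log2 ratio of unc-32 to vha-6 was 1.24, 1.26 and 1.32 in the L4440 libraries and 0.00743, -0.103 and -0.234 in the Y6B3B.9 libraries, a change of 2.61-fold. The ratio of vha-6 to vha-7 changed by 2.48-fold, that of unc-32 to vha-5 by 2.35-fold and that of vha-5 to vha-7 by 2.23-fold, each without overlap between labels. Within each like-moving pair the difference was small: the log2 ratio of unc-32 to vha-7 was 0.336 ± 0.0673 (SD, n = 3) under Y6B3B.9 and 0.411 ± 0.0617 (SD, n = 3) under L4440, with overlapping libraries, and vha-5 to vha-6 changed by 1.11-fold without overlap. By exact permutation, two-sided, p = 0.1 was found for 5 pairs (0.12 adjusted over the 6) and p = 0.3 for unc-32 to vha-7.

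The rotor ring genes changed little. vha-2 (WBGene00006911; chromosome III, 9782164 to 9783224, plus strand) encodes the proteolipid subunit c, of which the ring is built. It had 407, 422 and 440 CPM under Y6B3B.9 and 424, 423 and 408 CPM under L4440, overlapping ranges, with a log2 difference of 0.017 (edgeR SE 0.050, adjusted p = 0.759). Relative to the median of all genes this was -0.20, and the sign against 0 rests on the scaling, with -0.13 by DESeq2's size factors and 0.31 by library totals, both past the threshold. A coding gene on the same strand, R10E11.6, shares 219 exonic bases with vha-2, and it took 3903 reads against 71339 of vha-2 over the 6 libraries.

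vha-3 (WBGene00006912; chromosome IV, 2315460 to 2315945, minus strand) encodes the same proteolipid at a far lower level. It had 45.7, 50.9 and 49.9 CPM under Y6B3B.9 and 38.0, 41.8 and 39.2 CPM under L4440, without overlap. The log2 change was 0.30 (SE 0.060, edgeR adjusted p = 0.000314), but only 0.082 relative to the median. It was 0.036 and did not pass once the trend of change with gene length was removed. The Wald test of DESeq2 missed the threshold too (0.15). By reads per kilobase vha-3 made up 7.47% ± 0.279 (SD, n = 3) of the vha-2 and vha-3 total under Y6B3B.9 and 6.22% ± 0.288 (SD, n = 3) under L4440. The exact permutation test (two-sided) returned p = 0.1, its lowest possible value.

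The length behind the vha-3 share is uncertain. The deposited values imply a counted length of 1375 bases, 889 more than the single exon of 486 bases in the annotation used here. When the same reads were divided by annotated lengths the shares were 18.6% and 15.8%, and their difference was 2.79 percentage points in place of 1.24. The reads of vha-3 were still those counted over the longer model. Any reads from the added bases would make these shares too high, so they are not a second estimate of the vha-3 share. The next gene downstream on the same strand, vha-11, starts 892 bases away, and where the added bases of the vha-3 model lie is unknown. Whether reads are shared between the closely related vha-2 and vha-3 was not tested, since no transcript sequence was used here.

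In the soluble part, the ATP-binding subunits fell unequally. vha-12 (WBGene00006921; chromosome X, 4191094 to 4193144, plus strand), subunit B, had 120, 122 and 115 CPM under Y6B3B.9 and 252, 254 and 255 CPM under L4440. It showed the steepest fall of the 10, by log2 -1.09 (edgeR SE 0.046, adjusted p = 4.12e-11) or -1.31 relative to the median. Of all genes tested 8.20% had a lower value.

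vha-13 (WBGene00013025; chromosome V, 14351709 to 14354422, plus strand), subunit A, which carries the catalytic sites, had 310, 323 and 317 CPM under Y6B3B.9 and 421, 437 and 442 CPM under L4440. The groups did not overlap, and the log2 change was -0.45 (SE 0.047, edgeR adjusted p = 4.83e-07), or -0.67 relative to the median. vha-12 and vha-13 were lower and past the threshold in all 16 alternatives. Subunits A and B alternate in equal numbers in the V1 head. By RPKM computed from counts, the level of vha-13 was 1.97, 2.03 and 2.13 times that of vha-12 under Y6B3B.9 and 1.28, 1.32 and 1.33 times under L4440. The ratio needs no scaling between libraries, and its ranges lay apart.

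The stalk and linker genes fell slightly with TMM scaling. vha-8 (WBGene00006917; chromosome IV, 6791074 to 6792455, plus strand), subunit E of the peripheral stalk, had 224, 229 and 231 CPM under Y6B3B.9 and 262, 257 and 252 CPM under L4440. Its log2 change was -0.17 (SE 0.045, edgeR adjusted p = 0.00255), but with library totals it was 0.12, past the threshold as higher. The call was lost when genes needed at least 1 CPM in 3 libraries. vha-11 (WBGene00006920; chromosome IV, 2307815 to 2314567, minus strand), subunit C, which joins V1 to V0, had 95.4, 92.5 and 94.5 CPM against 109, 107 and 114 CPM. Its log2 change was -0.22 (SE 0.046, edgeR adjusted p = 0.000381), which became 0.067, with the call lost, when library totals were used. Both lay below the median gene, by -0.39 for vha-8 and -0.44 for vha-11.

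vha-3 and vha-11 are neighbours on one strand, yet they moved apart. By RPKM the ratio of vha-3 to vha-11 was 0.564, 0.648 and 0.622 under Y6B3B.9 and 0.410, 0.461 and 0.407 under L4440, ranges that did not overlap. vha-1 and vha-2, another pair of neighbours 400 bases apart on chromosome III, kept a ratio of vha-2 to vha-1 of 2.26 ± 0.0543 (SD, n = 3) under Y6B3B.9 and 2.23 ± 0.0241 (SD, n = 3) under L4440, with overlapping libraries. The size of each ratio rests on counted lengths, which exceed the annotated ones by 305 bases for vha-1 and 889 for vha-3. In the change of a ratio between labels the length itself cancels, but which reads were counted still rests on the gene models.

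In level per length, vha-2 was the most abundant of the 10 under both labels, at 440 RPKM under Y6B3B.9 and 435 RPKM under L4440, followed by vha-8, vha-13 and vha-12. vha-5 was the least abundant, at 14.2 RPKM and 12.2 RPKM. Between these ends the order differed. Under L4440 it ran unc-32 (92.3 RPKM), vha-7 (69.4), vha-11 (67.9), vha-6 (38.2) and vha-3 (28.9), where vha-7 and vha-11 overlapped. Under Y6B3B.9 it ran vha-11 (58.2 RPKM), vha-6 (49.4), unc-32 (45.9), vha-7 (36.3) and vha-3 (35.5), where vha-6 overlapped unc-32 and vha-7 overlapped vha-3. No other neighbours in either order overlapped in their libraries. The place of vha-3 rests on its counted length.

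The other 11 subunit genes of the pump were nearly level with TMM scaling: 7 did not pass, 3 fell and vha-9 rose, with a median log2 change of -0.024 beside 0.22 for all genes tested. The 7 lay between -0.094 and 0.033, none with an SE above 0.066. They are vha-1 (subunit c), vha-4 (subunit c''), vha-16 (subunit d), vha-17 (subunit e), vha-14 (subunit D), vha-10 (subunit G) and vha-20, an accessory protein. vha-18 (-0.52), vha-15 (-0.39) and vha-19 (-0.35) fell; vha-18 and vha-15 encode the regulatory subunit H and vha-19 the accessory protein Ac45, and the calls of vha-15 and vha-19 were lost with library totals. The call of vha-9 (subunit F, 0.17) was lost with DESeq2's size factors, and without Y6B3B.9 replicate 3 (0.1) or L4440 replicate 3 (0.12). Relative to the median gene vha-9 was at -0.045.

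How many of these 11 count as changed rests on the scaling, since most lie close to one value. With DESeq2's size factors 0 rose and 10 fell, where 41.2% of all genes tested rose and 41.7% fell. By library totals 8 rose and 1 fell, beside 57.5% and 27.9% of all genes. After removal of the trend with gene length 0 rose and 11 fell, beside 35.4% and 45.1%. Of the 4 subunit a isoforms 2 were called higher and 2 lower with TMM, by library totals and after that removal, while DESeq2's size factors left vha-5 uncalled. All of the 21 subunit genes lay between log2 -1.09 (vha-12) and 0.37 (vha-6).

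**Figure D3:**
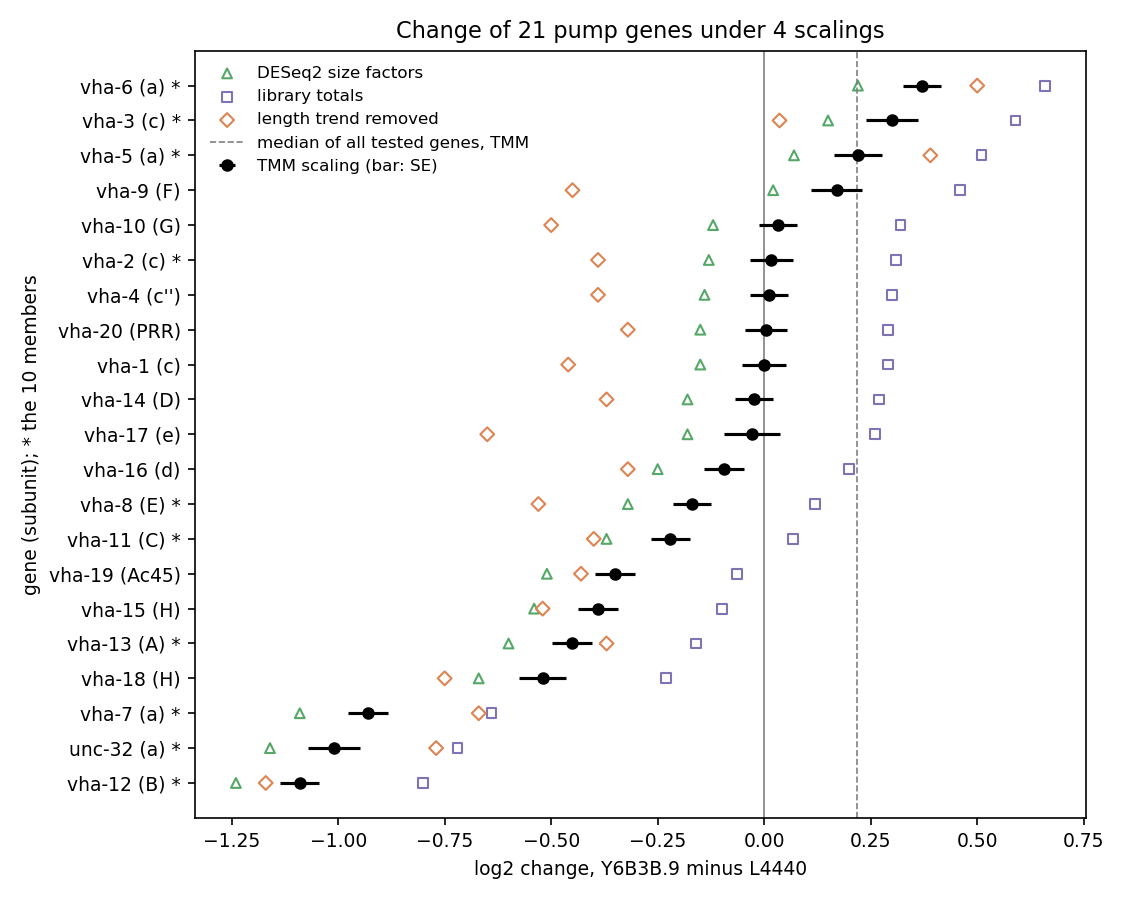
Log2 change of 21 pump genes (subunit in brackets, asterisks for the 10 members) under TMM scaling with SE (black), DESeq2's size factors, library totals and removal of the length trend; the dashed line is the median of all tested genes, 0.22. vha-12, unc-32 and vha-7 stand at the lower end in black, and they stay below 0 under all 4, whereas genes such as vha-2 and vha-1 cross 0 between scalings.

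Gene length moved with the change across the whole table. The median log2 change was 0.71 in the fifth of genes with the shortest counted length (up to 760 bases) and -0.47 in the fifth with the longest (from 2188 bases). The fitted trend was -0.24 at the 3615 bases of unc-32, -0.27 at the 3868 of vha-7, -0.17 at the 2965 of vha-5 and -0.13 at the 2710 of vha-6. With the trend removed the log2 changes were -0.77 for unc-32, -0.67 for vha-7, 0.39 for vha-5 and 0.50 for vha-6, all past the threshold, so the isoforms still lay on opposite sides. vha-12, at 1895 bases, had -1.17 and vha-13 had -0.37.

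After that step 2 members rose and 7 fell, 9 of 10 beside 80.5% of all genes tested (35.4% higher and 45.1% lower). vha-2 then had -0.39, vha-8 had -0.53 and vha-11 had -0.40, each past the threshold.

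**Figure D4:**
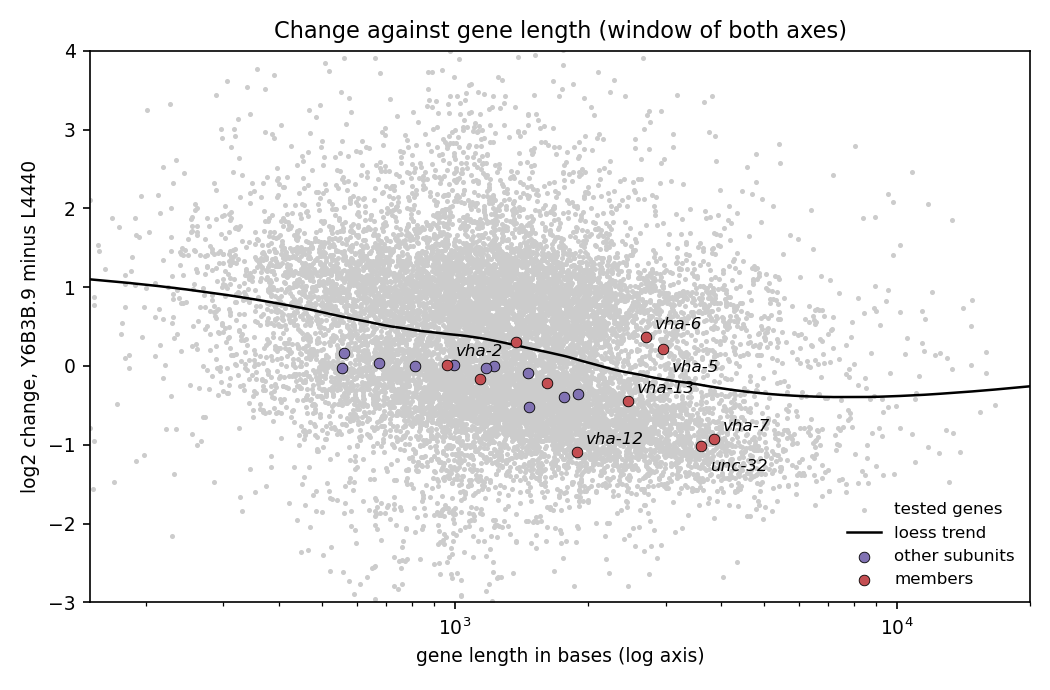
Log2 change with TMM scaling against gene length in bases (log axis) for tested genes (grey), the loess trend (line), the 10 members (red) and the other 11 subunit genes (purple); 153 genes lie outside the window. unc-32, vha-7 and vha-12 lie below the line and vha-6 and vha-5 above it.

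Genes that act with the pump did not move as one. The counts of each list stand beside 46.4% of all genes tested that rose and 37.7% that fell. By library totals these shares were 57.5% and 27.9%. They were 41.2% and 41.7% with DESeq2's size factors, and 35.4% and 45.1% after removal of the length trend. Of 7 genes of pump assembly and transcription 5 were called, a smaller share than the 84.1% of all genes. Of these 4 rose and 1 fell (2 fell with DESeq2's size factors): the transcriptional repressor gene mxl-3 (log2 change 1.33), the gut GATA factor gene elt-2 (1.14) and hlh-30 (0.33), the relative of TFEB that acts on lysosomal genes, rose, and so did nhr-31, a receptor gene known for acting on pump genes of the excretory canal. rbc-2, related to the rabconnectins that help assemble the pump, fell (-0.77). Of 12 genes of the mTORC1 kinase complex and of its regulators and targets 10 fell and 0 rose. The median log2 change was -0.48 (-0.19, with 3 higher and 6 lower, by library totals). Those that fell include let-363, the kinase itself (-1.17), daf-15, its partner Raptor (-0.98), rsks-1, the S6 kinase (-0.91) and nprl-2 (-0.81). The list was not divided into genes that promote and genes that restrain the complex.

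Of 20 genes of the lysosomal membrane and its hydrolases 9 rose and 6 fell, which is near the background of 46.4% and 37.7%. The protease gene asp-4 (0.83) and glo-1 (1.46), a Rab gene of gut granules, rose, and the channel gene cup-5 (-0.74) and the lipid kinase gene ppk-3 (-0.95) fell. The list's median of 0.046 was -0.10 with DESeq2's size factors. After removal of the length trend it was -0.22, with 8 higher and 9 lower beside 35.4% and 45.1% of all genes. By library totals it was 0.34, with 12 higher and 3 lower beside 57.5% and 27.9% of all genes. Among 5 genes of proton transport or proton signalling, the proton exchanger gene pbo-4 (1.09) and pbo-6 (0.93) rose. The peptide transporter gene pept-1 fell (-0.62), and pbo-5 (0.16) and the exchanger gene nhx-2 (0.065) did not pass. By library totals 4 of the 5 rose, beside 57.5% of all genes. After removal of the length trend 1 did, beside 35.4%. pbo-6 lay under 1 CPM in each group mean, and its call was lost when the length trend was removed (0.62). Leaving out Y6B3B.9 replicate 2 (0.58), L4440 replicate 1 (0.86) or L4440 replicate 2 (0.85) also ended that call.

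Tissue marker genes differed between the labels as well. In RNA of whole worms fewer cells of a type and less RNA per cell cannot be told apart. Counts of these lists also stand beside 46.4% of all genes tested that rose and 37.7% that fell, with the other settings as above. All 14 germline and oocyte markers fell (median log2 change -1.11). They include rme-2 (-1.42), cpg-1 (-1.33), gld-1 (-1.32) and htp-3 (-1.28). Their summed level was 5735 to 5846 CPM under Y6B3B.9 and 12250 to 12700 CPM under L4440. Of 13 intestine markers 9 rose (median 0.94), such as cpr-3 (1.68), ges-1 (1.19), ifc-2 (1.18) and act-5 (0.92), and pept-1, mtm-6 and erm-1 fell. Their summed level was 3823 to 4142 CPM under Y6B3B.9 and 2270 to 2352 CPM under L4440, so the rise of the intestinal isoform vha-6 came with a larger median rise of the gut list.

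Of 16 neuron markers 11 rose and 0 fell (median 0.59; 9 and 1 by DESeq2's size factors), with unc-64 (1.21), rab-3 (1.03), ida-1 (0.88) and egl-21 (0.84), at summed levels of 451.6 to 493.6 CPM against 360.6 to 384.7 CPM. unc-32 (-1.01) thus differed in sign from this list. vha-7 differed in sign from the medians of the epidermis list (0.82) and of the uterus, sheath and spermatheca list (0.67), each with 8 genes higher and 2 lower. The germline and oocyte list (median -1.11) had the sign of unc-32, vha-7 and vha-12. So did the mTORC1 list (median -0.48), which is not a list of tissue markers, so the shared sign does not name a tissue. The tissue source of these changes was not tested. Excretory canal markers divided, with 6 of 12 higher, such as exc-5 (0.80) and inx-12 (0.52), and exc-4 (-0.95) and clh-3 (-1.31) lower, at 226.8 to 236.9 CPM against 241.2 to 246 CPM. After removal of the length trend 6 were higher and 5 lower, beside 35.4% and 45.1% of all genes, and the median of 0.28 became 0.065.

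Of 11 epidermis markers 8 rose, including dpy-7 (2.99), nhr-25 (1.57) and vab-10 (0.52), and lin-26 (-0.55) and elt-1 fell (1 lower by library totals), with summed levels of 699.8 to 760.8 CPM against 651.8 to 711.6 CPM. Of 10 markers of uterus, gonadal sheath and spermatheca 8 rose, among them lim-7 (1.8) and egl-13 (1.14), while fln-1 (-1.11) and plst-1 (-1.12) fell, so that the sum was 632.7 to 649 CPM against 1030 to 1082 CPM. Of 13 muscle and pharynx markers 8 rose, with tnc-2 (1.03), pat-10 (0.85), lev-11 (0.74) and myo-2 (0.56), and myo-3 fell, at 1310 to 1454 CPM against 884.7 to 1118 CPM. By library totals, and again after removal of the length trend, 12 of these rose and 0 fell, so the call of myo-3 as lower was lost. Of all genes tested 57.5% rose by library totals and 35.4% after that removal. No marker of these lists was without reads. The part of tissue make-up in the changes of the pump genes was not tested.

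**Figure D5:**
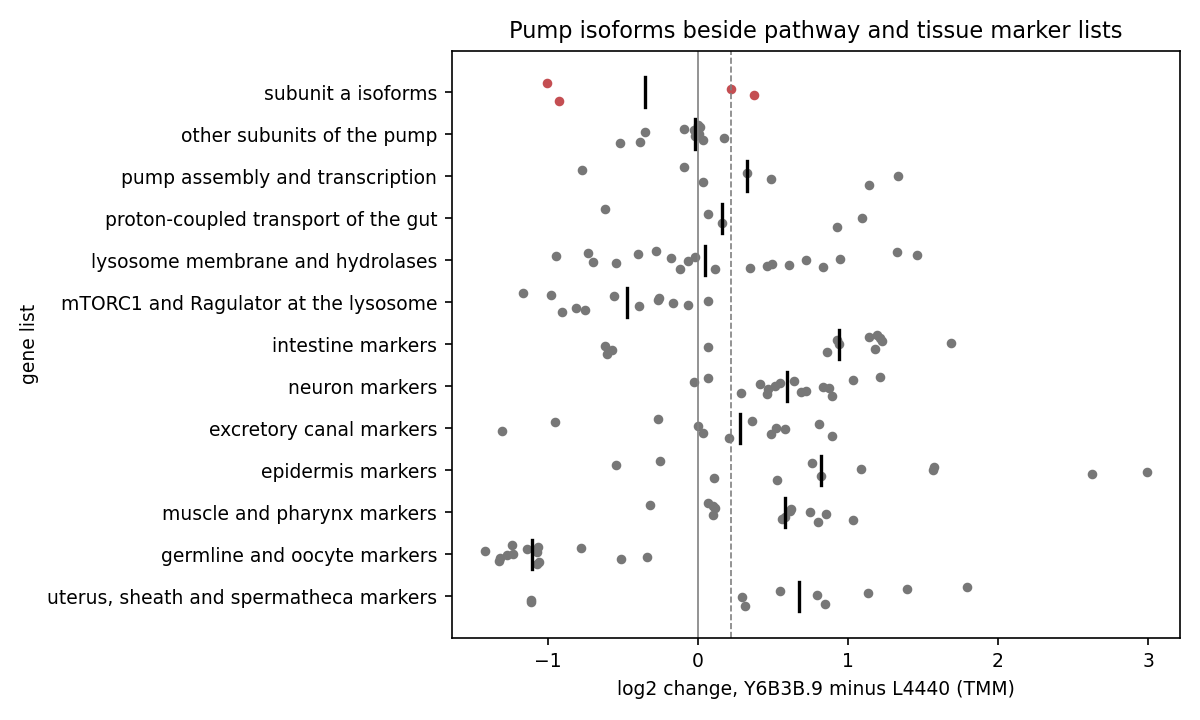
Log2 change with TMM scaling (x axis) of the 4 subunit a genes (red) and of each tested gene of the other lists (grey), with the list median as a black bar; the dashed line is the median of all tested genes, 0.22. The subunit a genes fall into a pair near -1 and a pair just above 0, the germline list has its median at -1.11 and the intestine list at 0.94. The list labelled proton-coupled transport of the gut also holds the proton signalling genes pbo-5 and pbo-6.

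By the root mean square difference of log2 CPM centred over the 6 libraries, the genes most like unc-32 were lex-1 (0.0151) and cid-1 (0.0162). Those most like vha-7 were imph-1 (0.00915) and let-99 (0.0102), and those most like vha-6 were F59B2.3 (0.0137) and Y62H9A.5 (0.0192). For vha-5 they were mrps-7 (0.0125) and mrp-5 (0.0292). With only 6 libraries in 2 groups this measure mostly reflects the size of the change, which was -0.99 for lex-1 and cid-1 beside -1.01 for unc-32.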

How the data were processed

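RNA of whole hermaphrodites was sequenced in 6 libraries, grouped by the perturbation label. Replicates were numbered in record order and not paired. The submitters' processing notes name build WBcel235 and the tools featureCounts 1.4.6-p4, STAR 2.4.1d and bcl2fastq 1.8.4; their options, annotation release and strand setting were not given in the sources used here. Raw whole-number counts per gene and RPKM values were deposited by the authors. In the deposited RPKM the 6 library totals were recycled along the rows: for 4330 of 4330 genes with at least 1000 reads per library, recycled totals gave 1 gene length within 0.1%, and each library's own total did so for 0. Deposited RPKM therefore served only to derive counted gene lengths, and RPKM was recomputed from counts. Between libraries of a group chi-square per degree of freedom was at least 4.08, more than counting noise gives, so none was a copy.

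The test on counts was that of edgeR 4.0.16 (R 4.3.3; filterByExpr, TMM, glmQLFit and glmQLFTest with robust=TRUE), with Benjamini-Hochberg adjustment over 14265 genes and a threshold of 0.05. SEs come from the F statistic. TMM factors lay between 1.10 and 1.11 in the Y6B3B.9 libraries and between 0.895 and 0.910 in the L4440 libraries, so they divided by label. Shares and isoform ratios used exact permutation tests. Alternatives changed the scaling (library totals or DESeq2's size factors), the filter (2 others), the dispersion (robust=FALSE) or the tool (limma 3.58.1, as voom on counts and as trend on log2 of RPKM plus 0.1 or 1, and DESeq2 1.42.0, Wald). Others were removal of a loess trend of log2 change with gene length through offsets, each library left out, and for shares other lengths. The scripts were also run on simulated counts, of which no values are given here. The members, gene lists and alternatives, the length trend among them, were chosen with earlier results of these data known. The genes named are all pump genes, Y6B3B.9, up to 4 of each other list with the smallest p, and the 2 nearest patterns of each isoform. nhr-31, nhx-2, mtm-6, erm-1, elt-1, myo-3, F35H10.10 and R10E11.6 were named after their values were seen. Gene positions and names are from the Ensembl annotation of WBcel235 and a table of gene names. Figures were drawn with matplotlib 3.10.9.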

Additional observations from a re-analysis of the deposited data

How the results depend on the processing

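No paired analysis was made, because the labels give the groups no shared replicate numbers. The counts of 6 lower and 3 higher members stayed at these values without any one library. With library totals, and with limma-trend at either pseudocount (both use library totals), the balance turned to 5 higher and 4 lower, and the DESeq2 Wald test gave 1 higher and 7 lower. For the other 11 pump genes the higher count of 1 was 8 with library totals and limma-trend, 3 with at least 1 CPM in 3 libraries, and 0 with DESeq2's size factors, no filter, the Wald test and the length trend removed, and 0 to 1 when a library was left out. Their lower count of 3 was 10 with DESeq2's size factors and the Wald test, 6 with no filter, 11 with the length trend removed and 1 with library totals and limma-trend. The changes of the isoform shares kept their sign under each length. In the change of an isoform ratio the length cancels, so other lengths could not alter it. With each library left out, changes of shares and ratios kept their sign. The change in the unc-32 share then lay between -12.8 and -11.3 and that of vha-6 between 15.3 and 16.5 percentage points.

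Changes near 0 changed sign. With library totals, vha-8 was at 0.12, vha-11 at 0.067, vha-1 at 0.29, vha-16 at 0.20, vha-17 at 0.26 and vha-14 at 0.27, and limma-trend gave the same within 0.01 (vha-11 0.068, vha-16 0.19, vha-14 0.26). With at least 1 CPM in 3 libraries vha-1 was at 0.096, vha-16 at 0.002, vha-17 at 0.067 and vha-14 at 0.072. With DESeq2's size factors and in the Wald test vha-2 was at -0.13, vha-4 at -0.14, vha-20 at -0.15 and vha-10 at -0.12, and with no filter these were at -0.079, -0.084, -0.092 and -0.062. With the length trend removed vha-2 and vha-4 were at -0.39, vha-20 at -0.32, vha-10 at -0.50, vha-9 at -0.45, mrps-7 at -0.26 and Y62H9A.5 at -0.23. With each library left out in turn vha-2 ranged from -0.019 to 0.037, vha-4 from -0.019 to 0.018, vha-20 from -0.036 to 0.019, vha-1 from -0.038 to 0.038 and vha-17 from -0.12 to 0.039. The scalings differ by construction in the level taken as unchanged, which accounts for the shifts with library totals and size factors. The cause of the length trend was not tested. At 856 or more reads per library, depth limits none of the members' values much.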
